A study of Mus musculus with 4 samples.

Results

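The replication-dependent histone genes encode the bulk of the histone proteins that package newly made DNA. They were taken as every gene whose symbol in the deposited tables begins with Hist1h, Hist2h, Hist3h or Hist4h, which gave 68 of the 24411 genes listed. By symbol, 6 encode the linker histone H1 and 18, 19, 12 and 13 encode the core histones H2A, H2B, H3 and H4. The Hist1 cluster on chromosome 13 holds 54 of them, the Hist2 cluster on chromosome 3 holds 10, the Hist3 cluster on chromosome 11 holds 3, and Hist4h4 lies alone on chromosome 6. RNA was sequenced from morulae of the ICR mouse strain, an outbred stock. All embryos came from in vitro fertilization, were electroporated as zygotes at 3 h after insemination and were grown in KSOM medium with bovine serum albumin until 72 h. The control group (siControl, 2 libraries) received a control siRNA, and the siPwp1 group (2 libraries) received siRNA against Pwp1, which encodes a WD-repeat protein with known roles in ribosomal RNA synthesis and chromatin. Each library pooled 10 embryos, so it holds no spread between embryos, and the labels do not say whether the replicates were separate cultures. P-values therefore measure only the spread between these libraries.

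Replication-dependent histone messenger RNAs are made in bulk during S phase. As background, they are the known metazoan messengers that usually end without a poly(A) tail. Their 3′ end is cut a few bases after a short stem-loop, which is bound by the stem-loop binding protein SLBP, and the cut needs the U7 small nuclear RNP. Replication-independent variants such as H3.3 and H2A.Z come from genes with introns and ordinary poly(A) tails. Poly(A) RNA was the input of these libraries, which were prepared with SMART-Seq v4 PLUS, a chemistry that starts complementary DNA synthesis with oligo(dT). The levels below are those of histone transcripts that such a library captures, and they were not compared with total RNA.

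The 3′ ends of the 9 stem-loop genes with the highest mean level are shown first, because they carry a feature in which the 2 most abundant differed from the rest. Hist1h3c follows for its A run, Hist1h1e for the H1 class, and Hist2h3c2 and Hist2h2ac for results given further on. Each line gives 30 bases of the transcript (GENCODE M21, GRCm38, sense strand, 5′ to 3′), with the 16-base stem-loop in capitals and the 14 bases before it in lower case.
Hist1h2ap: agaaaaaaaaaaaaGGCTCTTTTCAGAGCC
Hist1h2ao: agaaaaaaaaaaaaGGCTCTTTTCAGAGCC
Hist1h4d: acccaaaaaccaaaGGCCCTTTTCAGGGCC
Hist1h2ae: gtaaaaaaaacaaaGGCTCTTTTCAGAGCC
Hist1h4n: ctttctcaactaaaGGCCCTTTTCAGGGCC
Hist3h2a: ttacagacaccaaaGGCTCTTTTCAGAGCC
Hist1h2ag: tgatcgccaacaaaGGCTCTTTTCAGAGCC
Hist1h2bk: cgtctagcaccaaaGGCTCTTTTAAGAGCC
Hist1h4h: cctacaaaaccaaaGGCCCTTTTCAGGGCC
Hist1h3c: gctatttaaaaaaaGGCTCTTTTAAGAGCC
Hist1h1e: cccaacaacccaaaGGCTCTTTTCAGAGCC
Hist2h3c2: ccattccccacaaaGGCTCTTTTCAGAGCC
Hist2h2ac: cacgaatccaaaaaGGCTCTTTTTAGAGCC
The search looked for GG, any 2 bases, CTTTT, any base, AG, any 2 bases and CC in a row, on the sense strand after the stop codon. It was found in 43 of the 68 genes. In 18 others the annotated transcript has under 100 bases after the stop codon, or none, and ends before any match. The remaining 7 are 6 genes with at least 100 bases there and no match (Hist1h2bc, Hist1h2bp, Hist1h2bq, Hist1h2br, Hist1h4a and Hist2h2be) and Hist3h2bb-ps, which has no coding transcript in this annotation. Within the first 100 bases after the stop codon, 25 of the 31 histone genes with that much sequence held it, against 3 of 19813 other protein-coding genes (0.0151%). The 43 stem-loops took 6 forms. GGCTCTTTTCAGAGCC occurred in 25 genes of the H1, H2A, H2B and H3 classes. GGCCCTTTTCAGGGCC occurred in 7 genes, all H4. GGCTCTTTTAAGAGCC occurred in 6 genes, and 3 rarer forms in the other 5.

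Histone RNA in these libraries was very unevenly spread over the genes. Of 68 genes, 62 had a count in at least 1 library and 32 had a count in all 4, while 53 stayed under 1 CPM, the count scaled to library size, in every library and 58 had under 100 counts in the 4 libraries together. Hist1h4f, Hist1h4m, Hist2h2aa2, Hist2h2ab, Hist2h3c1 and Hist3h2bb-ps had no count at all. Of the 100-base windows of its transcript, Hist2h2aa2 shares 100% with Hist2h2aa1, and Hist1h4m shares 88.1% with Hist1h4n. Their counts of 0 thus depend on how RSEM divided shared reads, which was not tested. In these libraries 3 counts, the upper limit that a count of 0 allows, amount to 0.0594 to 0.104 CPM, which covers counting error only. Levels under that rest on 1 or 2 counts or on fractions that RSEM assigned. Library totals were 28981358 and 44985949 expected counts in siControl replicates 1 and 2 and 48765229 and 30356988 in siPwp1 replicates 1 and 2. Hist1h2ao and Hist1h2ap, a pair of H2A genes, together took 94.6% and 95.3% of all histone counts in the siControl libraries and 96.6% and 96.0% in the siPwp1 libraries. Over all 4 libraries, the H2A class held 97.3% of histone counts, H2B 0.936%, H4 0.844%, H1 0.533% and H3 0.348%. Nucleosomes hold the 4 core histones in equal numbers, and the captured transcripts did not show such a balance.

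**Figure D1:**
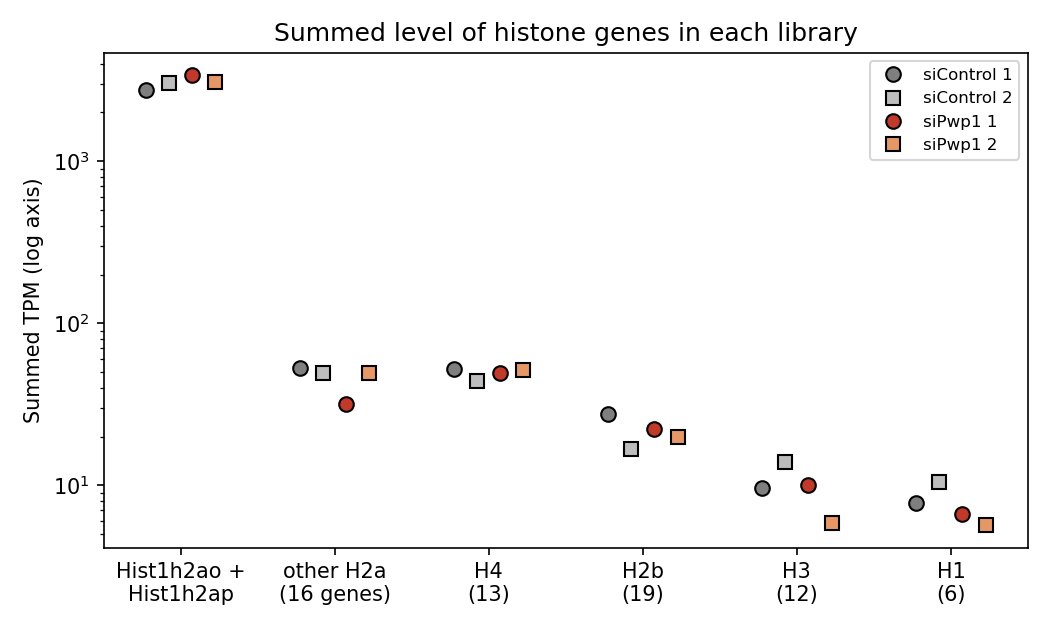
Summed TPM (log axis) of the Hist1h2ao and Hist1h2ap pair, of the other 16 H2A genes and of the H4, H2B, H3 and H1 genes, with 1 point per library (grey, siControl; red and orange, siPwp1; circle, replicate 1; square, replicate 2). The pair lies between 2756 and 3384 TPM in each library, while the summed H1 genes lie between 5.68 and 10.5 TPM.

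Hist1h2ap, an H2A gene on the minus strand of chromosome 13 (chr13:21833024-21833475, GRCm38, 1 exon), stood at 1827 and 1957 TPM, the level scaled by transcript length, in the controls and at 2250 and 1996 TPM in siPwp1. It ranked 115, 98, 83 and 94 by TPM among all genes in the 4 libraries. Hist1h2ao lies in the same cluster on the plus strand (chr13:21810367-21810918, 1 exon). It stood at 929 and 1092 TPM in the controls and at 1134 and 1093 TPM in siPwp1, and ranked between 188 and 226. Both were thus among the abundant transcripts captured in each library.

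The pair cannot be told apart by most reads. Their coding sequences were the same at all 393 bases. The longest stretch shared by the annotated transcripts was 452 bases, of 480 in Hist1h2ao and 482 in Hist1h2ap, and 92.7% and 92.2% of their 100-base windows occurred in another histone gene. RSEM divides such reads among the copies, and it gave Hist1h2ao between 42.97% and 45.41% of the pair's counts in the 4 libraries. The sum of both is the safer value. The next H2A gene, Hist1h2ae, differed from Hist1h2ao at 6 of the 393 coding bases. It shared 30.7% of its 100-base windows with other histone genes.

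In the sequence between the stop codon and the stem-loop, Hist1h2ao and Hist1h2ap each hold an unbroken run of 12 A, visible in the lines above. No other of the 43 genes with a stem-loop has a run that long. Hist1h2ae has a run of 8 A and stood at a mean of 24.9 TPM. In the other 40 the longest run was under 8, and their mean levels ran from 0 to 34.4 TPM, with a median of 0.971 TPM. Hist1h4d, with a run of 5, was the highest of those 40, and Hist1h3c, with a run of 7, stood at 1.05 TPM. A run of 12 A or more in the first 100 bases after the stop codon occurred in 70 of 19844 protein-coding genes (0.353%). Only genes with at least 100 annotated bases there were counted. Hist1h2ao and Hist1h2ap, with 85 and 57 such bases, are not among them. The run was looked for after the levels were known, and its part in the captured level was not tested.

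**Figure D2:**
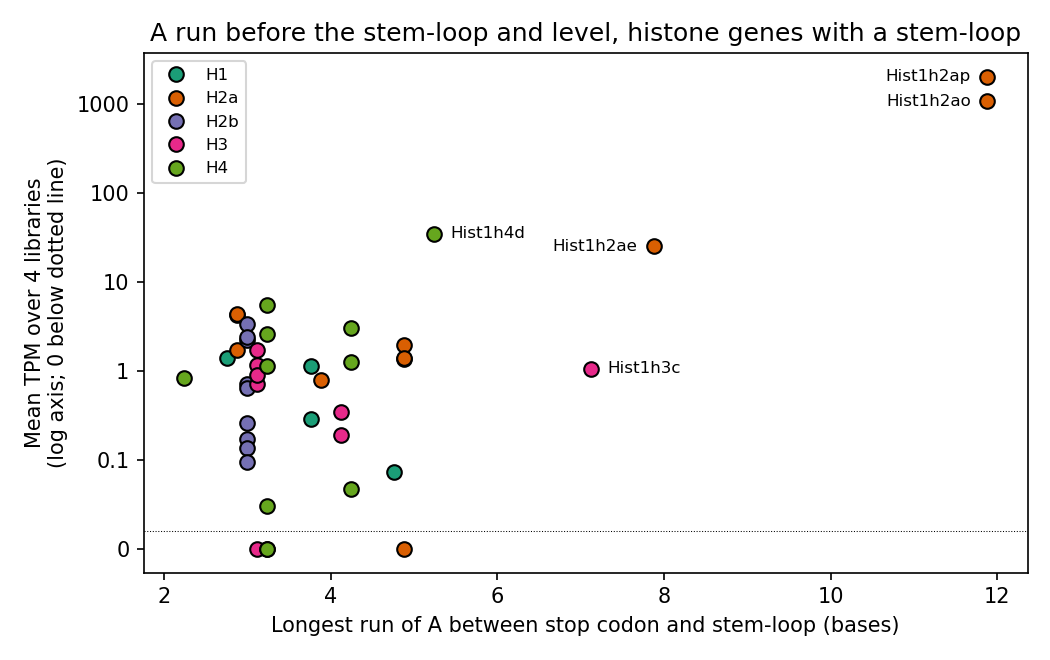
Mean TPM over the 4 libraries (log axis, with genes at 0 below the dotted line) against the longest run of A between the stop codon and the stem-loop, for the 43 histone genes with a stem-loop in their annotated transcript, coloured by class. Small sideways shifts separate the classes. Hist1h2ao and Hist1h2ap stand apart at a run of 12, at 1062 and 2008 TPM, but most of their reads were divided between them by RSEM.

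Genes grouped by other features of the 3′ end stood at lower counted levels than the pair. The signal AATAAA was found after the stem-loop in 13 of the 43 annotated transcripts. Among the 40 genes with a run under 8 A, the 12 with the signal had a median of 0.463 TPM and reached 4.34 TPM in Hist3h2a. The 28 without it had a median of 1.15 TPM. Some of these 28 have annotated transcripts that end soon after the stem-loop, such as 23 bases in Hist1h2ag and 30 in Hist1h2bk. A signal further on would not be seen there, so the split does not test the signal. The 6 genes with no stem-loop in at least 100 bases had a median of 0.239 TPM. Their highest member was Hist1h2bc, an H2B gene with 2 exons in this annotation, at 6.89 TPM. For 18 genes the GENCODE transcript was at least 200 bases longer than the model in the deposited tables, for example 2863 against 439 bases in Hist4h4 and 1138 against 368 in Hist1h4d. Hist3h2a and Hist4h4, which carry the signal, are among these 18. Reads from such longer 3′ ends have no place in the deposited models, and how many there were was not tested.

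Many H2A and H2B genes are divergent neighbours that share a short upstream region, and the abundant H2A pair had H2B neighbours at very low levels. There were 12 such head-to-head pairs of an H2A and an H2B gene, with 163 to 280 bases between the starts. Hist1h2bq, 167 bases from Hist1h2ao, stood at a mean of 0.212 CPM against 299.8 CPM. Hist1h2br lies 267 bases from Hist1h2ap and also stood at 0.212 CPM, against 380.1 CPM. These 2 H2B genes share a stretch of 1254 bases and were given identical expected counts, so they too are a single value. Hist1h2ae and its neighbour Hist1h2bg stood at 7.19 and 0.150 CPM, whereas Hist1h2ac and Hist1h2bc stood at 0.377 and 2.90 CPM. In the last of these the H2B gene was the higher one. The 300-base RefSeq promoter window of Hist1h2ao, from 250 bases before its start, spans the whole gap to Hist1h2bq and is shown for that reason.
Hist1h2ao promoter: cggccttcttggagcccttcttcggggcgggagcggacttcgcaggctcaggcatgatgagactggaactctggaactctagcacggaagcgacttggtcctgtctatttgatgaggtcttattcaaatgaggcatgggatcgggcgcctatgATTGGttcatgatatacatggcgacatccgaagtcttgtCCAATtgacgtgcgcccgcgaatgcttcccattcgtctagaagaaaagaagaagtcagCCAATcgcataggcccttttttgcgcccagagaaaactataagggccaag
It lies at chr13:21810117-21810416 (GRCm38.p6, plus strand), and capitals mark CCAAT on either strand, which occurs 3 times. The window of Hist1h2ap shares a stretch of 200 bases with it. CCAAT on either strand occurred in 53 of the 62 histone promoter windows in the RefSeq table (85.5%), against 37.4% of all 32851 windows. At least 3 occurrences were found in 31 of the 62 (50%), against 3.37% of all windows. These matches describe the sequence and not bound sites.

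Set against siControl, the siPwp1 libraries address how morula transcripts differ once siRNA targets Pwp1. Pwp1 stood at 215.4 and 364.9 CPM in the controls and at 36.9 and 37.2 CPM in siPwp1, with a log2 fold change of -2.97 (SE 0.333). Its adjusted p was 0.22 in the quasi-likelihood test of edgeR and 1.47e-12 in DESeq2. The 9 morula markers were all detected. They summed to 1052 and 741 CPM in the control libraries and to 671 and 668 CPM in siPwp1, lower in both siPwp1 libraries. Only Nanog and Pou5f1 lay lower in both siPwp1 libraries, and the other markers overlapped between the groups. Nanog stood at 422.4 and 290.9 CPM in the controls and at 197.9 and 273.1 CPM in siPwp1. Control replicate 1 stood apart in several of the 9 markers, with Gata3 at 126.3 against 22.7 CPM in control replicate 2. Summed markers of cumulus and granulosa cells were at 0.598 to 2.33 CPM and those of sperm at 0 to 1.25 CPM. The 9 blood and immune markers summed to 12.5 and 34.9 CPM in the controls and 44.0 and 45.2 CPM in siPwp1, mostly from Hba-a2, with Hbb-bs and Hbb-bt at 0 in each library. Their part in the results was not tested.

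No histone gene differed between the groups by the test. Of the 68 genes, 32 passed the filter on low counts and were tested with the 13585 genes of the whole table. The edgeR test called 0 of them higher and 0 lower at an adjusted p of 0.05, as it did for all genes (0% in each direction). Each of the 32 had the same adjusted p = 0.9998 with edgeR. DESeq2 also called 0 of them, against 42 higher and 2 lower over all genes. At an unadjusted p under 0.05, edgeR had 0 histone genes higher, against 1.84% of all genes, and 1 lower, against 0.824% of all genes. Both siPwp1 libraries lay above both siControl libraries for 4 of the 32 genes (12.5%, against 14.7% of all genes), and below them for 8 (25%, against 14% of all genes). The 4 were Hist1h2ad, Hist1h2bj, Hist1h4h and Hist1h4n. The 8 were Hist1h1b, Hist1h1e, Hist1h2ai, Hist1h2an, Hist1h2bc, Hist1h4d, Hist2h2ac and Hist2h3c2. A gene can pass the filter on low counts through a single group, as Hist2h2ac and Hist2h3c2 did through siControl. The counts of genes apart in either direction therefore depend partly on the filter and are no support for a direction. The median log2 fold change was -0.33 over the 32 genes and -0.00 over all genes. In bulk samples, fewer cells of a type and less RNA per cell cannot be told apart.

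Most of these differences rest on few reads. Among the 32 tested genes, 7 had a mean of 1 CPM or more, and 10 had at least 100 counts over the 4 libraries. The siControl replicates lay over 2-fold apart in 16 genes and the siPwp1 replicates in 18. Log2 fold changes were above 0 in 15 and below 0 in 17. The groups differed by over 2-fold in 14, and in 1 of those, Hist1h2bc, the SE was under 1. None of the 36 genes left out of the test had a mean above 0.240 CPM.

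**Figure D3:**
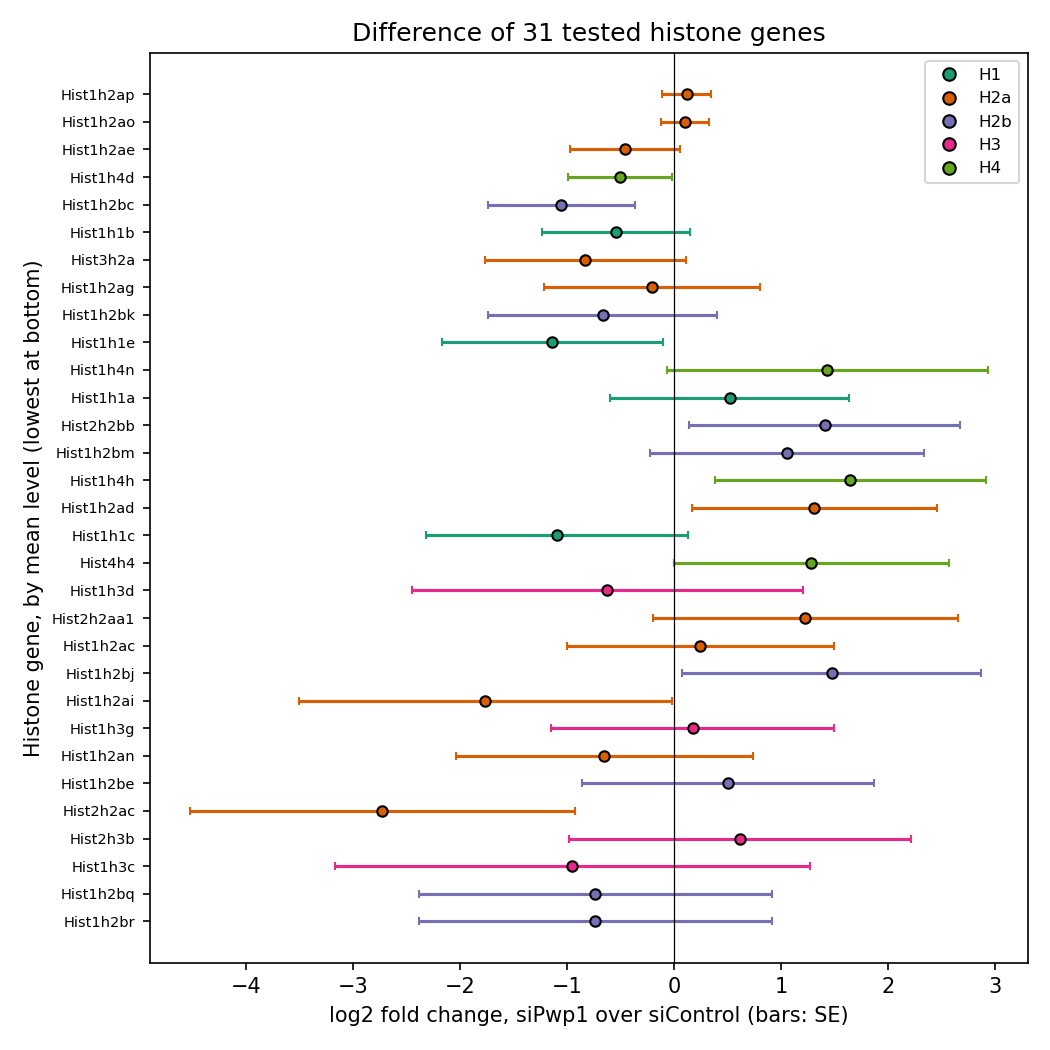
Log2 fold change (siPwp1 over siControl, edgeR) with its SE for 31 tested histone genes, ordered by mean level with the highest at the top and coloured by class. The SE grows from 0.23 in Hist1h2ap to over 1 in most genes at the bottom of the plot, and Hist2h3c2, at 0 in both siPwp1 libraries, is left out.

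The H2A genes carried nearly all of the signal, and their sum did not differ beyond the spread of the replicates. The Hist1h2ao and Hist1h2ap pair summed to 647.3 and 660.3 CPM in the controls and to 754.0 and 658.2 CPM in siPwp1. The group means were 653.8 ± 9.16 and 706.1 ± 67.7 CPM (SD, n = 2), and siPwp1 replicate 2 lay inside the siControl range. Hist1h2ap had a log2 fold change of 0.12 (SE 0.23) and Hist1h2ao one of 0.10 (SE 0.23), the smallest SEs among the histone genes. Without siPwp1 replicate 1, the value of Hist1h2ap turned to -0.01. The other 16 H2A genes summed to 14.5 and 12.3 CPM in the controls and 8.24 and 12.6 CPM in siPwp1, with overlapping groups. Hist1h2ae made up 14.2% to 30.1% of the histone counts outside the pair. It stood at 9.76 and 6.86 CPM in the controls and at 3.83 and 8.30 CPM in siPwp1 (log2 fold change -0.46, SE 0.52), and the groups overlapped. Without siPwp1 replicate 1 its log2 fold change was -0.001, and without siPwp1 replicate 2 it was -1.11.

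Among the lower H2A genes, Hist3h2a and Hist1h2ag overlapped between the groups, while Hist1h2ad and Hist2h2ac did not. Hist3h2a, from the small Hist3 cluster, stood at 0.729 and 1.93 CPM in the controls and 0.930 and 0.565 CPM in siPwp1. Hist1h2ag stood at 1.24 and 0.638 CPM and at 0.467 and 1.17 CPM. Hist1h2ad lay higher in both siPwp1 libraries, at 0.631 and 0.854 CPM against 0.261 and 0.324 CPM (log2 fold change 1.31, SE 1.15). Hist2h2ac lay lower, at 0.139 and 0 CPM against 0.729 and 0.296 CPM (log2 fold change -2.73, SE 1.80), on 41 counts in total. Neither passed the test. Hist1h2ag and Hist1h2ad share 76.2% and 63.6% of their 100-base windows with other histone genes. Their counts thus depend on how RSEM divided the reads, which was not tested.

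H2B partners H2A in the nucleosome. The 19 H2B genes summed to 9.23 and 6.37 CPM in the controls and 6.75 and 4.82 CPM in siPwp1 (7.80 ± 2.02 and 5.78 ± 1.37 CPM, SD, n = 2), and the groups overlapped. Hist1h2bc was the most abundant, at 3.26 and 4.58 CPM in the controls and at 2.80 and 0.979 CPM in siPwp1. Both siPwp1 libraries lay below both siControl libraries, but siPwp1 replicate 2 lay further from its own replicate than that replicate lay from siControl. Its log2 fold change was -1.05 (SE 0.69), and it was -0.48 without siPwp1 replicate 2 and -2.02 without siPwp1 replicate 1. Hist1h2bk, at 1.47 and 0.507 CPM in the controls and 0.442 and 0.795 CPM in siPwp1, overlapped between the groups. Hist2h2bb and Hist1h2bm also overlapped, at means of 0.317 and 0.346 CPM in the controls and 0.843 and 0.711 CPM in siPwp1. Hist1h2bj lay higher in both siPwp1 libraries, at 0.297 and 0.789 CPM against 0.278 and 0.120 CPM (log2 fold change 1.48, SE 1.40). Hist1h2bk and Hist1h2bj share 70.8% and 40.1% of their 100-base windows with other histone genes, so their counts too depend on how RSEM divided the reads. Hist2h2be, at 0.451, 0.0228, 0.139 and 0 CPM in the order given above, did not reach the filter.

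The 6 linker histone genes summed to a lower level in both siPwp1 libraries. H1 histones bind the nucleosome where DNA enters and leaves. Their sum was 4.06 and 5.03 CPM in the controls and 3.35 and 2.69 CPM in siPwp1, with means of 4.54 ± 0.684 and 3.02 ± 0.463 CPM (SD, n = 2). The 95% exact Poisson intervals, which cover counting error only, were 3.36 to 4.87 and 4.39 to 5.74 CPM in the controls and 2.86 to 3.89 and 2.14 to 3.34 CPM in siPwp1. Those of siControl replicate 1 and siPwp1 replicate 1 thus overlapped. Hist1h1b, the highest, stood at 1.84 and 2.34 CPM and then at 1.76 and 1.10 CPM (log2 fold change -0.55, SE 0.69). Hist1h1e stood at 0.833 and 1.12 CPM and then at 0.515 and 0.365 CPM (log2 fold change -1.14, SE 1.03). Hist1h1c, at 0.347 and 1.05 CPM in the controls and 0.416 and 0.233 CPM in siPwp1, and Hist1h1a, at 0.659 and 0.364 CPM and then 0.475 and 0.997 CPM, overlapped between the groups. Hist1h1d was too low to test, and the testis linker histone gene Hist1h1t had 4 counts in all. No H1 gene passed the test.

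The 12 H3 genes summed to 2.46 and 3.62 CPM in the controls and 2.28 and 1.295 CPM in siPwp1 (3.04 ± 0.815 and 1.79 ± 0.694 CPM, SD, n = 2). Both siPwp1 libraries lay below both siControl libraries, and the Poisson intervals of siControl replicate 1 (1.92 to 3.11 CPM) and siPwp1 replicate 1 (1.88 to 2.73 CPM) overlapped. The H3 gene with the widest gap between the group means was Hist2h3c2. It (chr3:96238479-96239127, GRCm38, minus strand, 1 exon) had 9.21 and 44.3 expected counts in the siControl libraries and 0 in both siPwp1 libraries. Against 3 counts in each siPwp1 library, its mean level was 8.34-fold lower in siPwp1, and 4.02-fold lower without siControl replicate 2. That limit covers counting error in siPwp1 only, and the error of the siControl counts is left out. It had the single unadjusted p under 0.05 among the histone genes (0.0158 in edgeR), with an adjusted p = 0.9998 in edgeR and 0.466 in DESeq2. Hist2h3c2 passed the filter on low counts through the siControl libraries alone, so this p is no separate support for a difference. Hist2h3c2 shares 61.6% of its 100-base windows with Hist2h3c1 of the same cluster, which was given 0 counts in each library. Hist2h3b of that cluster shares 77.1% of its windows with Hist2h3c1. It was given 7.79 and 5.73 counts in the controls and 4 and 17 in siPwp1. The counts of Hist2h3c2 thus depend on how RSEM divided the reads, which was not tested. Hist1h3b was at 0.728, 0.149, 0.0818 and 0 CPM and was not tested. Hist1h3d (0.183 and 0.812 CPM, then 0.625 and 0 CPM), Hist1h3g (0.312 and 0.319 CPM, then 0.475 and 0.233 CPM) and Hist2h3b (0.270 and 0.130 CPM, then 0.0792 and 0.565 CPM) overlapped between the groups.

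H4 showed no difference in its sum. H4 forms the tetramer of the nucleosome core with H3. The 13 H4 genes summed to 6.70 and 5.23 CPM in the controls and 6.35 and 6.21 CPM in siPwp1. Hist1h4d (chr13:23581568-23581969, GRCm38, plus strand, 1 exon) made up most of it, at 5.21 and 4.19 CPM in the controls and 3.29 and 3.32 CPM in siPwp1. It shared no 100-base window with another histone gene. Both siPwp1 libraries lay below both siControl libraries (log2 fold change -0.51, SE 0.49), without passing the test. The lower genes Hist1h4h, Hist1h4n and Hist4h4 had means on the other side. Hist1h4h stood at 0.117 and 0.378 CPM in the controls and 0.555 and 1.03 CPM in siPwp1 (log2 fold change 1.65, SE 1.27). Hist1h4n stood at 0.659 and 0.0228 CPM and then at 0.851 and 0.963 CPM (log2 fold change 1.43, SE 1.502), on a siControl replicate 2 with 1 count. Its log2 fold change was 0.46 without that library and 5.14 without siControl replicate 1, a value that depends on the prior count. Hist1h4n shares 80.7% of its 100-base windows with Hist1h4m, which was given 0 counts in each library. Hist4h4 stood at 0.243 and 0.296 CPM and then at 1.05 and 0.266 CPM, so its siPwp1 mean rested on replicate 1. Hist1h4i was not tested, at 0.312 and 0.205 CPM and then 0.0198 and 0.133 CPM.

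**Figure D4:**
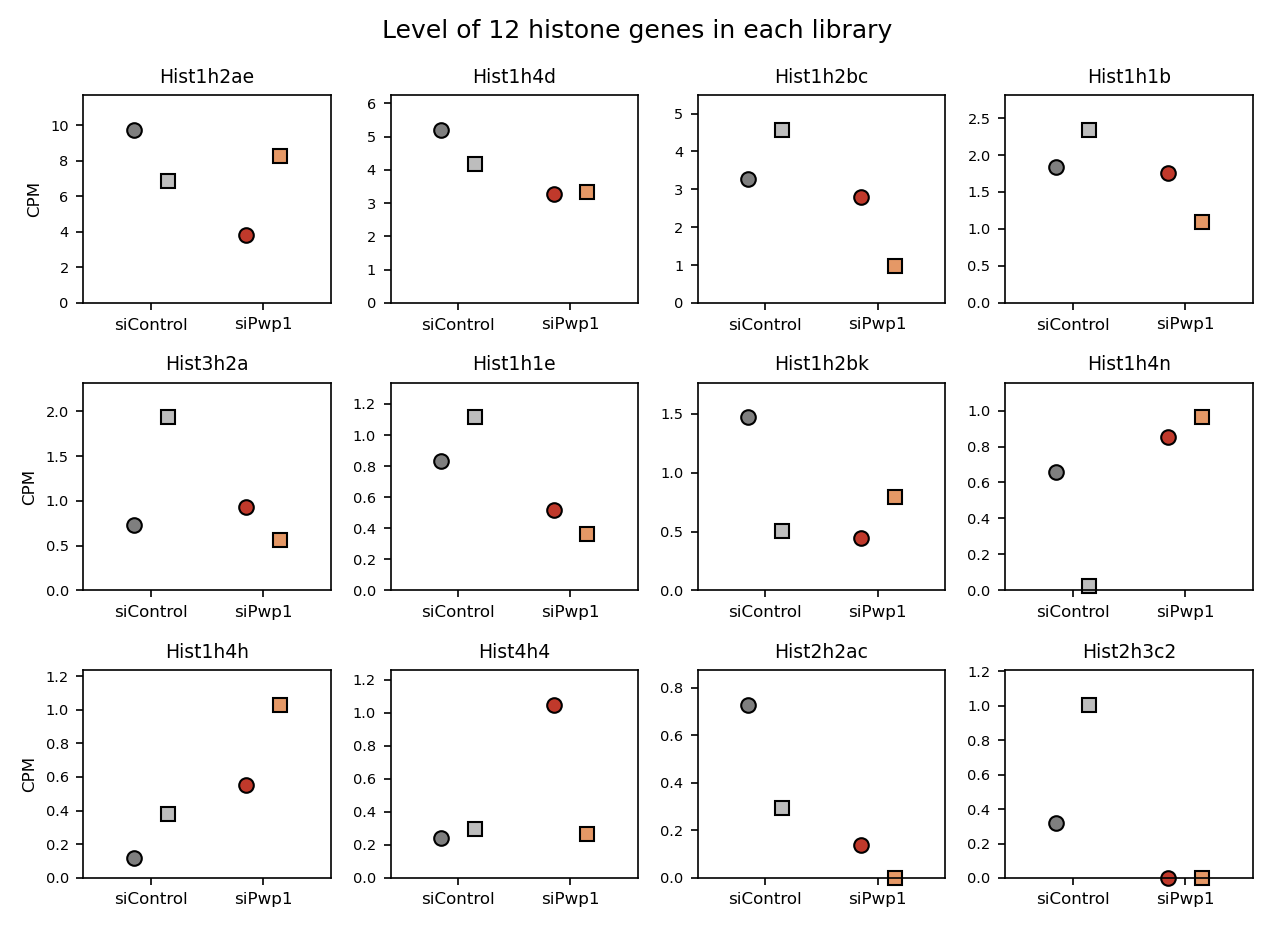
Level in CPM (linear axis from 0, a different scale in each panel) of 12 histone genes in each library, with siControl in grey and siPwp1 in red and orange (circle, replicate 1; square, replicate 2). In Hist1h4d, Hist1h2bc, Hist1h1b, Hist1h1e and Hist2h2ac both siPwp1 points lie below both siControl points, and Hist2h3c2 is at 0 in both siPwp1 libraries. In Hist1h4n and Hist1h4h both siPwp1 points lie above both siControl points. The groups overlap in Hist1h2ae, Hist3h2a, Hist1h2bk and Hist4h4.

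Without the abundant pair, the other 66 genes summed to 36.9 and 32.5 CPM in the controls and to 27.0 and 27.6 CPM in siPwp1 (34.7 ± 3.11 and 27.3 ± 0.428 CPM, SD, n = 2). This sum lay lower in both siPwp1 libraries. The sum over all 68 genes was 684.2 and 692.8 CPM in the controls and 780.9 and 685.8 CPM in siPwp1, with overlapping groups. In summed TPM the H1 genes kept the order of the groups, at 7.76 and 10.5 TPM in the controls and 6.64 and 5.68 TPM in siPwp1. The H3 genes did not, at 9.60 and 13.9 TPM in the controls and 10.01 and 5.83 TPM in siPwp1. The lower H3 sum thus depended on the scale.

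Genes that make and process histone messengers were detected throughout. All 30 genes of this list, which covers transcription, U7-dependent 3′ processing and decay, were tested, and edgeR called 0 of them. The groups did not overlap for 2 that lay higher (Ncbp2 and Lsm10) and 4 that lay lower (Eri1, Lsm11, Snrpd3 and Yy1), against 14.7% and 14% of all genes, with a median log2 fold change of -0.04. Slbp, the gene of the stem-loop binding protein, stood at 345.4 and 371.8 CPM in the controls and 313.4 and 465.5 CPM in siPwp1, with overlapping groups. Ncbp2, the small subunit of the nuclear cap-binding complex, stood at 169.6 and 219.9 CPM and then at 307.4 and 318.4 CPM (log2 fold change 0.68, SE 0.25), the single member with an unadjusted p under 0.05. Eri1, an exonuclease that trims histone 3′ ends, stood at 84.4 and 90.6 CPM and then at 65.8 and 51.1 CPM (log2 fold change -0.58, SE 0.27). Snrpb, Snrpe and Snrpg, whose Sm proteins are shared with the spliceosome, had log2 fold changes of 0.01, -0.00 and -0.10. Neither Ncbp2 nor Eri1 passed the test.

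Among the replication-independent variants, H2afz alone, and H3f3a and H3f3b summed, had higher TPM in each library than the captured H2A pair summed. The messengers of these genes carry poly(A) tails. Neither H3f3a nor H3f3b by itself stood above the summed pair in any library. H2afz, which encodes H2A.Z, stood at 3855 and 3981 TPM in the controls and 4588 and 4196 TPM in siPwp1. H3f3a and H3f3b, which both encode H3.3, summed to 3537 and 4118 TPM in the controls and 4321 and 4395 TPM in siPwp1, against 5.83 to 13.9 TPM for the 12 replication-dependent H3 genes together. H1f0, a linker histone variant, stood at 7.37 to 17.4 TPM. Of the 21 variants listed, 19 were in the tables and 12 were tested. The test called 0, and 5 of the 12 lay higher in both siPwp1 libraries (H3f3a, H3f3b, H2afz, H2afv and H2afj) and 0 lower, beside 14.7% and 14% of all genes, with a median log2 fold change of 0.18. Of these, H2afv had a log2 fold change of 0.44 (SE 0.26) and H2afj one of 0.43 (SE 0.28), and those of H2afz, H3f3a and H3f3b were 0.14, 0.15 and 0.22.

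Histone chaperones, which carry histones to and from DNA, gave 0 calls among 26 tested genes, with a median log2 fold change of -0.03. Ubn1, of the H3.3 deposition complex, lay higher and Hat1, which acetylates new H4, lay lower in both siPwp1 libraries, the single genes of the 26 to do so (14.7% and 14% of all genes). Hat1 stood at 848.1 and 726.3 CPM and then at 676.3 and 570.2 CPM (log2 fold change -0.34, SE 0.23). Npm1, Rbbp7 and Nap1l1, the most abundant of the list, had log2 fold changes of -0.13, 0.15 and 0.07, and Mcm2 had one of -0.54 (SE 0.35), which moved to -0.09 when control replicate 1 was left out and to -0.89 when control replicate 2 was.

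The 34 S phase genes tested gave 0 calls too, with a median log2 fold change of -0.14. Both siPwp1 libraries lay above both siControl libraries for 2 (Ccna2 and Pole) and below them for 9 (Mcm3, Mcm4, Mcm5, Mcm10, Gins1, Gins2, Pold1, Rpa1 and Rfc4), where all genes gave 14.7% and 14%. Mcm4, a subunit of the replicative helicase, stood at 160.5 and 128.5 CPM in the controls and 86.7 and 84.5 CPM in siPwp1 (log2 fold change -0.76, SE 0.25). It was the single gene of the list with an unadjusted p under 0.05. Rrm2 and Tyms, enzymes of nucleotide supply, had log2 fold changes of -0.01 (SE 0.30) and 0.08 (SE 0.23), and Ccna2, the S phase cyclin, had one of 0.15 (SE 0.23). Uhrf1, at 50.8 and 6.32 CPM in the controls and 11.7 and 5.68 CPM in siPwp1, was high in siControl replicate 1, and without that library its log2 fold change turned to 0.46. DESeq2 called 0 genes in each of the 4 lists, and the variants and chaperones had no gene with an unadjusted p under 0.05 in edgeR. None of these lists was chosen without knowledge of earlier results on these libraries.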

How the data were processed

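RNA-seq of 4 libraries was deposited as 1 table per library with 24411 genes by symbol. Per the submitters' processing notes, the tools were STAR 2.7.10 and RSEM 1.3.3 and the build mm10; for annotation release, trimming and strand the entry is "not given in the sources used here". The expected counts, estimated by the authors with RSEM, are not normalized, per the file headers. The TPM were made by the authors within each library from those counts and effective lengths, per the file headers. The FPKM deposited beside them, and model lengths except where stated, were not used. Expected counts were rounded for testing with edgeR 4.0.16 (quasi-likelihood, group as the single term) in R 4.3.3, with filterByExpr (minimum count 10), TMM scaling and two-sided Benjamini-Hochberg adjusted p-values at 0.05 over 13585 genes. Levels are TMM-scaled CPM of the unrounded counts, with siControl replicates 1 and 2 given first and then siPwp1 replicates 1 and 2. Log2 fold changes are siPwp1 over siControl, with SE as the absolute fold change over the square root of F. Sums over genes and 3′ end features carry no test. The script was tested on simulated data.

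All 68 histone genes were matched to RefSeq, and 67 had a coding transcript in GENCODE M21 (GRCm38), from which 3′ ends were read; promoter windows are RefSeq's (GRCm38.p6). The genes named were the 5 highest of each class, the 5 with the smallest p in each direction, 5 set genes and, per list, the 3 highest and 2 with the smallest p; Slbp, Hist1h3c, Hist1h2bg, Hist1h2ac, Hist1h1t, and genes named where counts are small, were chosen after their values were seen. Members and lists were chosen with earlier results of these data known. Replicate numbers pair nothing in the labels. Alternatives were no filter, a stricter filter, DESeq2 size factors, the DESeq2 1.42.0 test, a replicate block, and each library left out.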

Additional observations from a re-analysis of the deposited data

How the results depend on the processing

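No histone gene was called under any alternative run: DESeq2 size factors, no filter, a filter of 5 CPM in 2 libraries, the DESeq2 test, the replicate number as a block, or any library left out. Genes with groups apart numbered 6 higher and 14 lower of 61 without a filter (13% and 12.8% of all genes), and 1 higher and 0 lower of 3 with the stricter filter (13.8% and 13% of all genes). With a library left out, which leaves 1 library in a group, they numbered 7 to 12 higher and 12 to 14 lower, against 26.9% to 36.5% of all genes in each direction. Summed levels then ranged from -0.006 to 0.188 (log2) for all histone genes, 0.008 to 0.198 for H2A and -0.094 to 0.264 for H4; those of H1, H2B and H3 stayed below 0. Pwp1 was called without a filter (-2.98), with the block (-2.92), by DESeq2 (-2.96) and with any library left out (-3.30 to -2.54). One S phase gene, Uhrf1, was called without a filter and without siControl replicate 2 (0 to 1 with a library left out), the latter at an adjusted p = 0.00326 with edgeR, a value that rests on siControl replicate 1.

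With the block, edgeR called 71 genes higher and 9 lower, and 0 histone genes. Deviations of same-numbered libraries correlated at 0.317 over all genes tested and at -0.383 over the 32 histone genes. With 2 pairs and no label that ties the numbers, the samples share only a number.

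The direction turned for Snrpb without a filter (-0.001), for Snrpe with the stricter filter (0.037), DESeq2 size factors (0.006), the block (0.002) and DESeq2 (0.006), and for Rrm2 with the stricter filter (0.028) and the block (0.029). With a library left out, the lowest and highest log2 fold changes crossed 0 for Hist1h1a (-0.094 to 1.002), Hist1h2ag (-0.974 to 0.352), Hist1h2ap (-0.014 to 0.244), Hist1h2bk (-1.25 to 0.292), Hist1h3d (-7.11 to 0.894), Hist1h3g (-0.435 to 0.592), Hist2h3b (-1.33 to 1.45), Hist3h2a (-1.36 to 0.042) and Hist4h4 (-0.023 to 1.95). They also crossed 0 for Nap1l1 (-0.065 to 0.226), Npm1 (-0.352 to 0.126), Rbbp7 (-0.127 to 0.504), Rrm2 (-0.336 to 0.408), Snrpb (-0.008 to 0.030), Snrpe (-0.157 to 0.172), Snrpg (-0.357 to 0.204), Tyms (-0.072 to 0.249) and Uhrf1 (-2.54 to 0.462). The cause was not tested. Depth limits the 58 histone genes with under 100 counts in total.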
